A study of Mus musculus with 192 samples.

Results

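The Schlafen genes are a mammalian family that is transcribed in immune cells and belongs, for most of its members, to the genes switched on by interferon. The 7 mouse members described here, Slfn1, Slfn2, Slfn3, Slfn4, Slfn5, Slfn8 and Slfn9, were taken by their symbols, as a family listed with earlier results of these data known and by a rule that uses no measured value, and they are 7 of the 23481 genes in the count table. Schlafen proteins share a core region that can bind or cut RNA. The family is sorted by protein size: Slfn1 and Slfn2 are short forms, Slfn3 and Slfn4 intermediate forms, and Slfn5, Slfn8 and Slfn9 long forms that carry an additional helicase-like part. Slfn1 is known for slowing the growth of thymocytes when overproduced, Slfn2 for keeping T cells and monocytes in a resting state, and Slfn4 as a myeloid gene that answers Toll-like receptor ligands and interferon. Type I interferon, secreted by cells that sense microbes, signals through the receptor chains Ifnar1 and Ifnar2 and the kinases Jak1 and Tyk2, and its target promoters often hold an interferon-stimulated response element (ISRE).

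Gene expression was read by RNA sequencing in dendritic cells grown with GM-CSF from the bone marrow of female C57BL/6J mice aged 6 to 8 weeks. Wells of 100000 cells received ligands of pattern recognition receptors for 6 hours. The labels give all groups the same culture protocol and name no difference between them other than the ligands. The 192 libraries form 64 groups of 3: a control named Ctrl, 7 ligands given alone, their 21 pairs and their 35 triplets. The labels name the ligands PAM, LPS (lipopolysaccharide), HMW, Zymosan (depleted zymosan), SeV, cGAMP (the 3',3' form of this cyclic dinucleotide) and CpGB, and doses were not analysed here. A pair is written PAM+SeV and a triplet PAM+HMW+SeV. The labels do not say whether the 3 libraries of a group came from separate mice, cultures or wells, so the p-values measure the spread between these libraries, which may be technical.

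The counts are of unique molecular identifiers (UMIs), each marking 1 cDNA molecule. Totals ran from 46564 to 610234 counts per library with a median of 171616, and the Ctrl libraries were among the shallow ones with 61823, 68941 and 89530. Levels are given as counts-per-million (CPM) of scaled library size, which are comparable between libraries for the same gene and not between genes. Over the 3 Ctrl libraries together, Slfn5 had 66 counts, Slfn2 48, Slfn8 11, Slfn1 6 and Slfn4 6, so folds against Ctrl are least precise for Slfn1, Slfn4 and Slfn8. Slfn3 and Slfn9 had no count in Ctrl and did not pass the filter on low counts, which 4720 genes and the other 5 members passed. The 5 members that passed held 37622 counts (Slfn5), 30128 (Slfn2), 10405 (Slfn8), 8838 (Slfn4) and 4197 (Slfn1) over all libraries, against 406 for Slfn9 and 200 for Slfn3. The cells carried the markers of GM-CSF dendritic cells: Itgax, Cd74, H2-Ab1, H2-Aa, Flt3, Zbtb46 and Ccr7 summed to group means between 5043 and 7103 CPM, although Zbtb46 was at 0 in Ctrl and Flt3 at 4.62 CPM. Markers of other cells of such cultures were present too: 4 of 5 macrophage markers were in the table and summed to 872 to 2275 CPM over groups, and 6 of 7 neutrophil markers summed to 529 to 968 CPM. The macrophage markers moved with some ligands: their mean sum was 2270 CPM in Ctrl (1 of the 4 at 0), 1417 with LPS, 1488 with CpGB, 1623 with PAM, 1842 with Zymosan, 1953 with cGAMP, 2132 with HMW and 2275 with SeV, and their part in the results below was not tested. Members of this list went opposite ways: Csf1r, the CSF1 receptor, was at 1718 CPM in Ctrl against a median over all groups of 689, and Fcgr1, an Fc receptor, at 60.7 against 296. T cell, NK cell, B cell and mast cell or basophil lists reached at most 21.7, 2.17, 18.7 and 8.73 CPM, with Cd3e at 0 in every library. A library pools the RNA of a whole well, so a change in the number of expressing cells and a change in RNA per cell cannot be told apart.

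All 7 genes lie in 1 cluster of 263.806 kb on chromosome 11 (mm10, GENCODE M21). Slfn5 spans chr11:82951349-82964840 on the plus strand and is overlapped by the antisense gene Slfn5os, as Slfn2 is by Gm20234 on the minus strand; whether counting used the strand is not given in the sources used here, so reads of Slfn5 and Slfn2 cannot be told apart from those of these genes. Slfn9 (chr11:82978390-82991830) and Slfn8 (chr11:83002158-83020810) lie on the minus strand. Slfn2 (chr11:83065112-83070678), Slfn1 (chr11:83116849-83122670), Slfn4 (chr11:83175186-83190216) and Slfn3 (chr11:83191330-83215154) follow on the plus strand. The members are near copies in places: of all stretches of 50 bases in its transcripts, Slfn3 shares 7.39% with Slfn4, Slfn8 shares 9.30% with Slfn9, and Slfn2 shares 4.27% with Slfn4. How reads matching several members were counted is not given in the sources used here, so reads may have been split or lost within these pairs, and the values of Slfn2, Slfn3, Slfn4, Slfn8 and Slfn9 are uncertain to that extent.

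The promoters of the 3 long forms are shown because each holds an ISRE-like match. That of Slfn4 is shown because it holds none. Slfn4 had the highest log2 fold change with a single ligand (LPS) when all Ctrl libraries were used. The sequences are the 250 bases before the RefSeq start (GRCm38.p6, the mm10 assembly), read 5′ to 3′ on the strand of the gene, at chr11:82951852-82952101 (Slfn5, plus strand), chr11:83020811-83021060 (Slfn8, minus), chr11:82991831-82992080 (Slfn9, minus) and chr11:83174936-83175185 (Slfn4, plus). A transcript of Slfn5 in GENCODE M21 begins inside the window shown. The Slfn5 gene there begins at chr11:82951349, before the window, so the window lies within the gene as GENCODE gives it. Capitals mark the ISRE-like match, GAAA and GAAA with any 2 bases between them on either strand, and the earlier run of capitals in Slfn9 marks a kB site, the type of sequence bound by NF-kB.
Slfn5: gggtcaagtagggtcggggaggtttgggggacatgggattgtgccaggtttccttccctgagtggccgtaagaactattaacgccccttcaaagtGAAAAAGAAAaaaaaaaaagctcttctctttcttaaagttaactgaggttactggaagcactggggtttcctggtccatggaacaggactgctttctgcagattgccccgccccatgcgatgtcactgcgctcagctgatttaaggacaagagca
Slfn8: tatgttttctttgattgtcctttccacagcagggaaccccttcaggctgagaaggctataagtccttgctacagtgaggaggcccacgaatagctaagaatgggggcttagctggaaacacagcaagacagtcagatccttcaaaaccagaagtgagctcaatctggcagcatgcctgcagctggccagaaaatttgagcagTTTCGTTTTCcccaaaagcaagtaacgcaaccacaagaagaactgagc
Slfn9: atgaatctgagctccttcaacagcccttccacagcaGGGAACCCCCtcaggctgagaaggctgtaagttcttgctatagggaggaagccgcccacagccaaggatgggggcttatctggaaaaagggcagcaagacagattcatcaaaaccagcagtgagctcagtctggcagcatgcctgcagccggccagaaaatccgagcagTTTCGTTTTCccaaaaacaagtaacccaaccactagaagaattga
Slfn4: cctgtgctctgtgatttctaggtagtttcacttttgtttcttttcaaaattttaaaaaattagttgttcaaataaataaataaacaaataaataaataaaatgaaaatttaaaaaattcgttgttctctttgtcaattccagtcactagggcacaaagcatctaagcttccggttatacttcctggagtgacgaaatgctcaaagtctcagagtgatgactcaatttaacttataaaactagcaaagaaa
The ISRE-like match begins 155 bases before the start of Slfn5, 48 bases before that of Slfn8 and 45 bases before that of Slfn9, and Slfn8 and Slfn9 carry the same 10 bases there. A second RefSeq start of Slfn8 places the same match 136 bases upstream. Among 32851 RefSeq promoters of 300 bases (250 before to 50 after the start), 3.44% held this motif. The windows of Slfn1, Slfn2, Slfn3 and Slfn4 did not hold it. A kB site was found in Slfn9, 214 bases before the start, and in Slfn1, 43 bases before it, against 8.46% of all promoters. No member held the GAS motif TTCNNNGAA, which 8.30% of promoters held. None of these matches overlapped another. A match describes letters in the window and is not evidence of binding, and the absence of one says nothing of the factor.

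Given alone, LPS, SeV, cGAMP and CpGB raised all 5 members that could be tested, with log2 fold changes between 1.89 and 4.08, whereas PAM, HMW and Zymosan raised 1 or 2 each. A member was called at an adjusted p under 0.05 with a log2 fold change of at least 1 in edgeR's quasi-likelihood test, the adjustment being Benjamini-Hochberg over the 4720 genes tested. All 7 comparisons share the same 3 Ctrl libraries. The 5 of 5 members called higher with LPS, SeV, cGAMP and CpGB stand against 14.6%, 10.5%, 11.7% and 10.8% of all genes tested. With PAM 2 members were called, Slfn2 and Slfn8, against 8.01% of genes. With HMW it was Slfn5 alone, against 0.953%, and with Zymosan it was Slfn2 alone, against 4.43%. In all, 24 of 35 comparisons were called higher and 0 lower by edgeR (26 had an unadjusted p under 0.05, and DESeq2 also called 0 lower). The median log2 fold change of the 5 members was 2.64 with LPS, 2.59 with SeV, 2.55 with cGAMP, 2.11 with CpGB, 0.99 with PAM, 0.76 with HMW and 0.58 with Zymosan, while the median of all genes lay between -0.09 and 0.03.

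**Figure D1:**
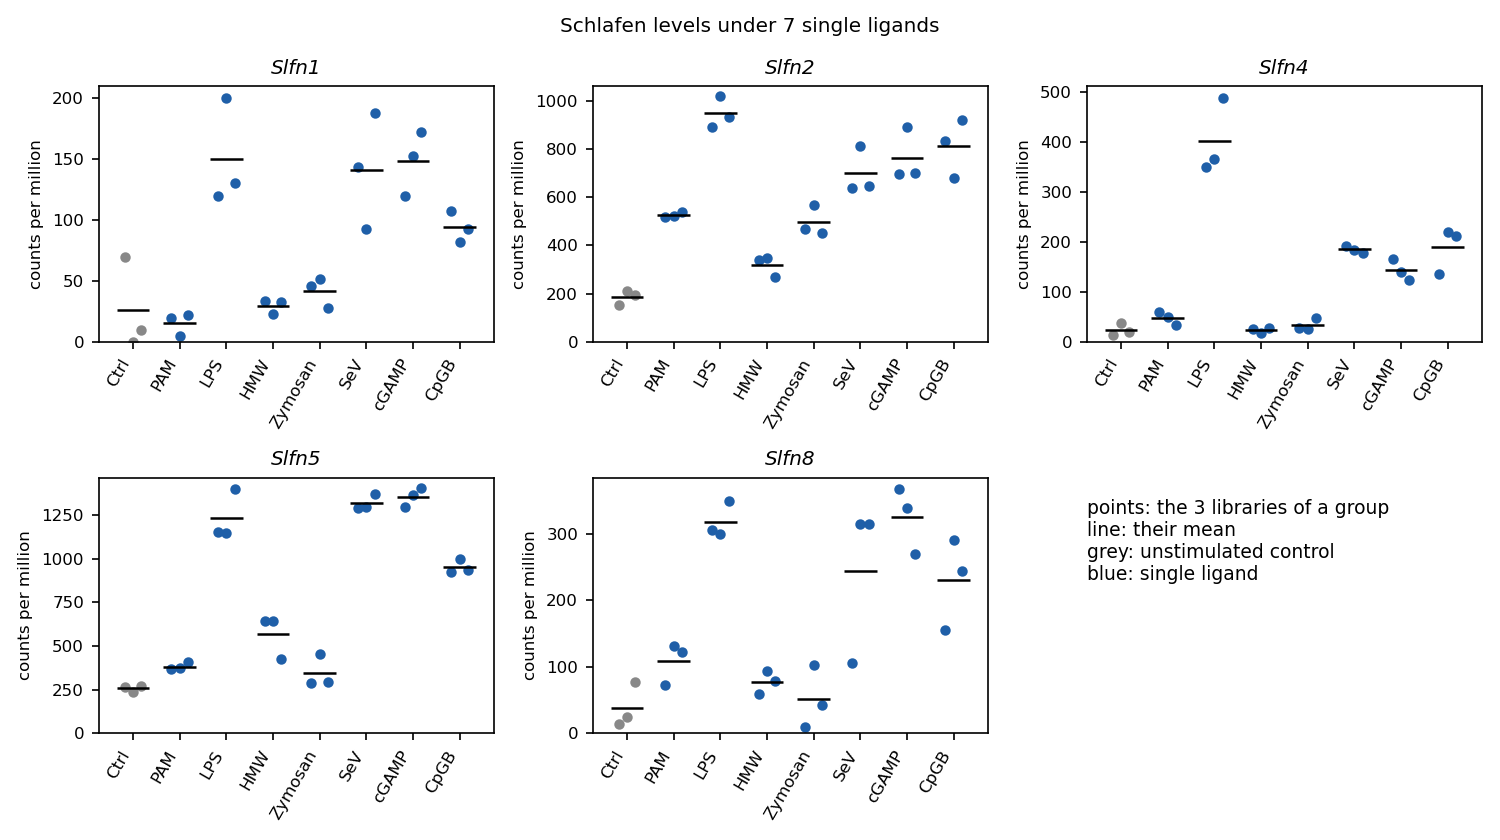
Level of the 5 tested Schlafen genes in each library of Ctrl and the 7 single-ligand groups (y axis, CPM; x axis, group); points are libraries and lines are group means. Every LPS, SeV, cGAMP and CpGB library sits above every Ctrl library for each gene, and Slfn4 is highest with LPS at 349.9 to 488 CPM.

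Of the short forms, Slfn2 was raised by 6 of the 7 ligands and Slfn1 by 4. Slfn2 was at 152, 212 and 192 CPM in the Ctrl libraries. It was at 893, 1019.7 and 935 CPM with LPS, which gave a log2 fold change of 2.34 with an SE of 0.19 (adjusted p = 5.53e-24; edgeR with the Benjamini-Hochberg method, as for all adjusted p below). SeV libraries held 640.3, 812 and 647 CPM, cGAMP libraries 697, 894 and 699.7, and CpGB libraries 835, 679 and 922. These groups overlapped one another and lay above every Ctrl library, with log2 fold changes of 1.90 (SE 0.21), 2.04 (SE 0.20) and 2.11 (SE 0.20) and a highest adjusted p of 1.95e-15. PAM, at 518, 523 and 539 CPM, and Zymosan, at 469, 569.5 and 453, raised Slfn2 less, by 1.49 (SE 0.21, adjusted p = 7.76e-10) and 1.40 (SE 0.21, adjusted p = 5.20e-08) on the log2 scale. HMW libraries held 341, 349.8 and 269.5 CPM, all above Ctrl, and the log2 fold change of 0.76 (SE 0.23) did not pass (adjusted p = 0.0609).

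Slfn1 was read from few molecules in Ctrl, at 69.3, 0 and 9.6 CPM, and its folds have wide errors. LPS libraries held 119, 199.5 and 129.8 CPM, SeV libraries 143, 92 and 188, and cGAMP libraries 119, 152 and 172. The log2 fold changes were 2.64 (SE 0.53, adjusted p = 1.47e-05), 2.61 (SE 0.54, adjusted p = 5.50e-05) and 2.64 (SE 0.54, adjusted p = 3.35e-05), and no library of these 3 groups fell within the range of Ctrl. CpGB libraries were at 107, 81.7 and 92.2 CPM (log2 fold change 1.93, SE 0.59, adjusted p = 0.00861). This call did not pass without Ctrl replicate 2 (1.51) or without Ctrl replicate 3 (1.56), and the SeV call did not pass without replicate 3 of every group (1.79). Ctrl replicate 1 held 5 of the 6 Ctrl counts. Without it the log2 fold changes rose to 4.66 with LPS, 4.63 with SeV, 4.66 with cGAMP and 3.99 with CpGB, all called (highest adjusted p = 0.000291). PAM gave 19.7, 5.03 and 22.2 CPM, HMW 33.3, 22.4 and 32.5, and Zymosan 46, 51.2 and 28. All 9 of these libraries lay within the range of Ctrl, and the log2 fold changes of -0.61, 0.28 and 0.74 did not pass (adjusted p = 0.702, 0.976 and 0.632). Without Ctrl replicate 1 they were 1.38, 2.27 and 2.71 and did not pass either (adjusted p = 0.594, 0.661 and 0.144).

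Slfn4, the intermediate form that was measurable, had the highest log2 fold change with a single ligand when all Ctrl libraries were used. Ctrl libraries held 13.9, 37.4 and 19.2 CPM, and LPS libraries 349.9, 366 and 488. The log2 fold change of 4.08 (SE 0.49, adjusted p = 4.08e-13) was the highest of the 35. Without Ctrl replicate 1 that of Slfn1 with LPS was 4.66, and members were not tested against each other. For Slfn4, SeV gave 191, 184 and 178 CPM, cGAMP 165, 140.2 and 123, and CpGB 136, 219.5 and 212. All of these lay above every Ctrl library, with log2 fold changes of 2.93 (SE 0.59, adjusted p = 2.66e-05), 2.55 (SE 0.62, adjusted p = 0.000659) and 3.04 (SE 0.57, adjusted p = 4.31e-06). PAM libraries were at 59, 50.3 and 33.3 CPM, 2 of them above Ctrl, and the log2 fold change of 0.99 (SE 0.76) did not pass (adjusted p = 0.447). After thinning every library to 46564 counts, the values with PAM and Zymosan were 4.09 and 4.26 and passed, against a control that held 6 counts of Slfn4 in all before thinning. HMW, at 24.9, 17.9 and 27.9 CPM, and Zymosan, at 27.6, 25.6 and 46.7, overlapped Ctrl (log2 fold changes -0.01 and 0.58). Slfn4 is also transcribed in neutrophils, and the 6 neutrophil markers in the table summed to 595 to 811 CPM over the Ctrl libraries and 848 to 1102 over the LPS libraries, none of the 6 at 0 in either group; their part in the result was not tested. The corresponding means were 736 CPM in Ctrl, 968 with LPS, 917 with PAM, 796 with CpGB, 791 with Zymosan, 736 with cGAMP, 732 with SeV and 706 with HMW.

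Of the long forms, Slfn5 was measured most precisely. It was at 263, 237 and 269 CPM in Ctrl and at 1293, 1361 and 1406 CPM with cGAMP, and the log2 fold change was 2.40 (SE 0.18, adjusted p = 1.80e-27). SeV gave 1290.1, 1295 and 1369.5 CPM and LPS 1154, 1147 and 1401, for log2 fold changes of 2.36 (SE 0.18, adjusted p = 1.24e-26) and 2.27 (SE 0.18, adjusted p = 1.46e-25). CpGB libraries, at 922, 996 and 936 CPM, lay below all libraries of these 3 groups and above all of Ctrl (log2 fold change 1.89, SE 0.19, adjusted p = 4.88e-18). HMW, at 640.3, 641 and 423 CPM, also raised Slfn5, by 1.12 (SE 0.20, adjusted p = 1.46e-05); without replicate 2 of every group this was 0.99, under the fold threshold. PAM libraries held 367, 372 and 406 CPM, above every Ctrl library, and the log2 fold change of 0.57 (SE 0.21, adjusted p = 0.0423) passed the adjusted p and not the fold threshold. Zymosan, at 285, 454 and 294 CPM, gave 0.42 (SE 0.22, adjusted p = 0.250).

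Slfn8 was at 13.9, 24.9 and 76.8 CPM in Ctrl, where replicate 3 stood apart. LPS libraries held 305, 299 and 349 CPM, cGAMP libraries 367, 339 and 270.1, and CpGB libraries 155, 291 and 244, all above Ctrl. The log2 fold changes were 2.88 (SE 0.37, adjusted p = 8.99e-12), 2.89 (SE 0.38, adjusted p = 2.56e-11) and 2.48 (SE 0.39, adjusted p = 4.14e-08). SeV gave 105, 314 and 314 CPM, 1 low library and 2 at the level of LPS, for 2.59 (SE 0.39, adjusted p = 1.21e-08). PAM libraries, at 72.2, 131 and 122 CPM, overlapped Ctrl, and the log2 fold change of 1.36 (SE 0.46) passed with an adjusted p of 0.0229. That call was lost with library size alone as the scaling (1.18), with DESeq2 (1.24), without Ctrl replicate 1 (1.04) or 2 (1.15), and without PAM replicate 2 (1.25) or 3 (1.29). HMW libraries held 58.2, 94.2 and 79 CPM and Zymosan libraries 9.2, 102 and 42, and their log2 fold changes of 0.90 and 0.34 did not pass (adjusted p = 0.613 and 0.804).

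Single ligands were also compared directly with each other, which does not use Ctrl. Over the 21 pairs of ligands, 55 of 105 member comparisons were called, in either direction, against 13.7% of all genes. Slfn4 was higher with LPS than with SeV by 1.15 (SE 0.27, adjusted p = 0.000619), than with cGAMP by 1.53 (SE 0.28, adjusted p = 5.84e-06) and than with CpGB by 1.04 (SE 0.26, adjusted p = 0.00229) on the log2 scale. None of the other 4 members passed the fold threshold in these 3 comparisons, and members were not tested against each other. Slfn1 was at 0.71 for LPS over CpGB (SE 0.32, adjusted p = 0.176, libraries not overlapping). Between SeV and cGAMP no member passed the adjusted p. Some differences passed the adjusted p and stayed under the fold threshold, so they are not calls. For Slfn2 this was 0.45 for LPS over SeV (adjusted p = 0.0154, libraries not overlapping). For Slfn5 these were 0.47 for SeV over CpGB (adjusted p = 0.00471), 0.51 for cGAMP over CpGB (adjusted p = 0.00153) and 0.38 for LPS over CpGB (adjusted p = 0.0480). Among the other 3 ligands 1 comparison was called, Slfn8 with PAM over Zymosan at 1.02 (adjusted p = 0.0363), with overlapping libraries. Those under the fold threshold were, for Slfn5, 0.55 for HMW over PAM (adjusted p = 0.00463) and 0.70 for HMW over Zymosan (adjusted p = 0.000794, with overlapping libraries). For Slfn2 they were 0.73 for PAM over HMW (adjusted p = 0.000113) and 0.64 for Zymosan over HMW (adjusted p = 0.00278).

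The interferon pathway genes were described beside the family, from a list of 17 genes of which 16 were tested (Ifna4 was not). Of these, 12 were called higher with SeV, 12 with cGAMP, 11 with LPS, 10 with CpGB, 5 with PAM, 5 with HMW and 3 with Zymosan. The median log2 fold change of the 16 was 2.77, 2.87, 3.03, 2.11, 0.71, 0.65 and 0.57 in that order of ligands. Ifnb1, which encodes interferon beta, was called with SeV (log2 fold change 4.33, SE 0.59, adjusted p = 1.91e-10) and cGAMP (3.93, SE 0.63, adjusted p = 5.73e-08). It did not pass at 6 hours with LPS (0.32, SE 1.04, adjusted p = 0.858) or CpGB (0.70, SE 1.00, adjusted p = 0.682). Both ligands raised all 5 tested Schlafen genes. The errors of these Ifnb1 values are wide, so a rise of Ifnb1 with either ligand is not excluded. Irf7, an interferon-induced factor, rose by 3.58 with LPS, 3.45 with cGAMP, 3.43 with SeV, 2.86 with CpGB and 1.30 with HMW, the ligands that raised Slfn5. Stat2, a factor of this pathway, was called with PAM, HMW and Zymosan as well, which raised few members. The 6 NF-kB target genes of a second list ordered the ligands otherwise: 6 were called higher with PAM, LPS and CpGB, 4 with Zymosan, 2 with cGAMP (Tnf and Nfkbia) and 1 with SeV (Tnf), and their median log2 fold change with HMW was 0.19.

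Almost every combination raised the tested members. In pairs, 96 of 105 member comparisons with Ctrl were called higher and 0 lower by edgeR, against 13.7% of all genes called higher, and 98 had an unadjusted p under 0.05. In triplets it was 173 of 175, against 15.7%. The 9 exceptions among pairs lay in PAM+Zymosan, HMW+Zymosan, PAM+HMW and PAM+CpGB. In PAM+Zymosan, Slfn1, Slfn4, Slfn5 and Slfn8 were not called; in HMW+Zymosan and in PAM+CpGB, Slfn1 and Slfn4 were not; and in PAM+HMW, Slfn1 was not. Both exceptions among triplets were Slfn1, in PAM+HMW+CpGB and PAM+Zymosan+CpGB. The median log2 fold change against Ctrl over members and groups was 2.48 in pairs and 2.62 in triplets.

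**Figure D2:**
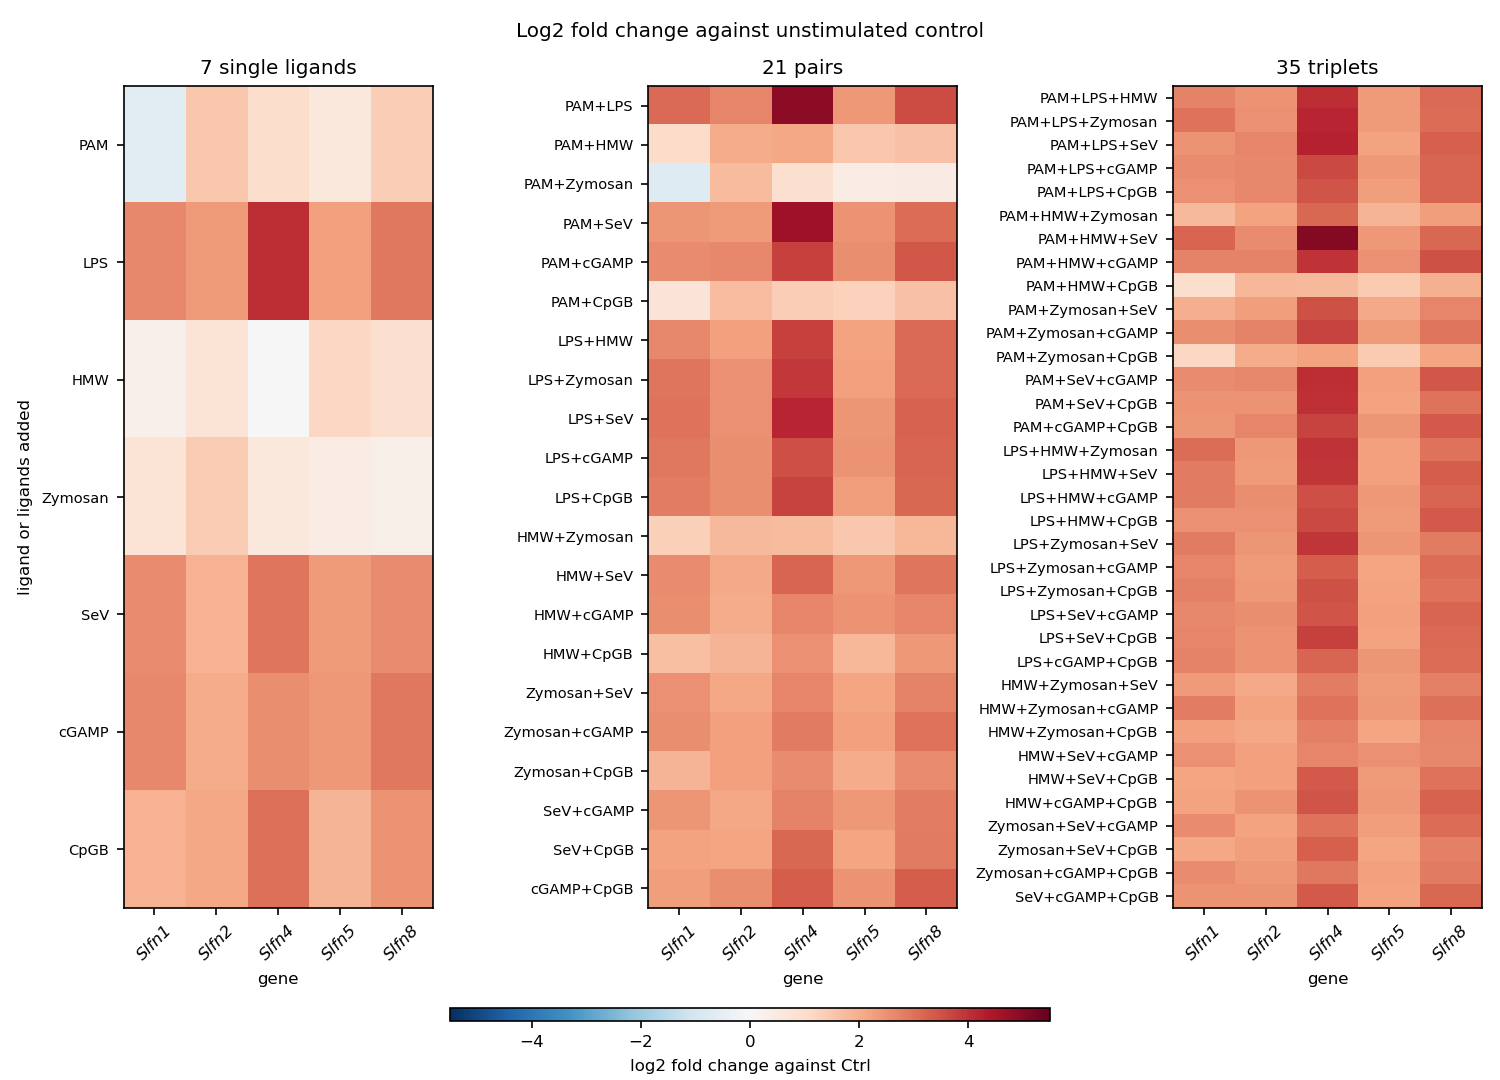
Log2 fold change against Ctrl of the 5 tested Schlafen genes (columns) in the 63 stimulated groups (rows: single ligands, pairs, triplets); colour gives the log2 fold change. Pale rows include PAM, HMW and Zymosan alone, PAM+Zymosan and PAM+CpGB, and Slfn4 spans the widest range, from -0.01 with HMW to 5.04 with PAM+HMW+SeV.

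Group means of Slfn1, Slfn5 and Slfn8 in groups with LPS, SeV or cGAMP, alone or combined, did not overlap those in groups without these ligands and CpGB. The classes follow the ligands that raised all tested members when given alone, and the share of all genes separated in this way was not counted. Slfn5 was at 1096 to 1535 CPM in the 49 groups with at least 1 of these 3 ligands, at 624 to 1159 in the 7 with CpGB and none of them, and at 341 to 937 in the 7 with none of the 4 (group means). Slfn1 was at 96.8 to 205 CPM in the same 49 groups, at 39.3 to 111 in the 7 of the CpGB class and at 11.6 to 84 in the 7 with none of the 4, with Ctrl at 26.3. Slfn8 was at 245 to 509, 132 to 274 and 51.2 to 214 in these classes. The CpGB class overlapped both others for Slfn1, Slfn5 and Slfn8. Slfn4 and Slfn2 overlapped between these classes: Slfn4 ran from 143 to 740.2 CPM and from 23.6 to 221, the last being PAM+HMW+Zymosan, whose mean without replicate 1 was 130.3, below 143. Slfn2 ran from 700.0 to 1254 CPM and from 320.1 to 865. Ctrl was the lowest of the 64 groups for Slfn2, Slfn4, Slfn5 and Slfn8, and rank 62 for Slfn1. When each group was compared with the next in a member's own order, 2 of the 63 steps per member at most had an unadjusted p under 0.05. After adjustment, edgeR separated 1 step for Slfn2 (Zymosan over HMW) and 1 for Slfn5 (HMW over PAM), and 0 for Slfn1, Slfn4 and Slfn8. The orders below therefore do not separate a group from its neighbours.

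Slfn1 was highest in LPS+HMW+Zymosan (205 ± 30.6 CPM, mean and SD of 3 libraries, as below), PAM+HMW+SeV (201 ± 106) and PAM+LPS (196 ± 77.2), and lowest among combinations in PAM+Zymosan (11.6 ± 10.4). Slfn2 peaked in PAM+Zymosan+cGAMP (1254 ± 105 CPM), PAM+HMW+cGAMP (1222 ± 81.3) and PAM+LPS+SeV (1213 ± 149), with its lowest combination in PAM+CpGB (620.2 ± 115). The highest Slfn5 means were in PAM+cGAMP (1535 ± 23.9 CPM), PAM+HMW+cGAMP and HMW+SeV+cGAMP (1476 and 1459), against 341 ± 36.5 in PAM+Zymosan. For Slfn8 they were in PAM+LPS (509 ± 39.2 CPM), PAM+HMW+cGAMP (483) and PAM+cGAMP (461), against 59 ± 4.11 in PAM+Zymosan. Slfn4 had its highest mean in PAM+HMW+SeV, where the libraries held 452, 387 and 1381 CPM (740.2 ± 556). The library at 1381 CPM is the deepest of the series with 610234 counts. Over all genes it differed from the other 2 of its group by a chi-square per degree of freedom of 4.47 and 4.63, the highest values between replicates of the series, against 1.59 between those. The other 2 lay below the means of PAM+LPS (693 ± 289 CPM) and PAM+SeV (605 ± 87.9). The lowest Slfn4 means of combinations were in PAM+Zymosan (47.2 ± 15.2 CPM), PAM+CpGB (61.4 ± 13.1) and HMW+Zymosan (76.4). PAM+Zymosan and PAM+CpGB were among the 3 lowest combinations for each of the 5 members.

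Many pairs of ligands raised the members by less than the sum of their log2 effects. An interaction was the log2 effect of the pair against Ctrl less the log2 effects of its 2 ligands, so that 0 stands for log2 effects that add up. It was negative and past the adjusted p in 46 of 105 member comparisons and positive in 0 by edgeR, against 3.5% of all genes negative, and 54 had an unadjusted p under 0.05. Slfn2 accounted for 16 of them, Slfn5 for 11, Slfn4 and Slfn8 for 7 each and Slfn1 for 5, of 21 pairs each. The largest called value of each member was -3.42 for Slfn4 in LPS+CpGB (SE 0.63, adjusted p = 4.14e-06), -2.83 for Slfn1 in SeV+cGAMP (SE 0.64, adjusted p = 0.000446) and -2.68 for Slfn8 in SeV+cGAMP (SE 0.46, adjusted p = 8.83e-07). For Slfn5 it was -2.37 in SeV+cGAMP (SE 0.23, adjusted p = 8.35e-19), and for Slfn2 it was -1.89 in PAM+CpGB (SE 0.26, adjusted p = 4.75e-10). For Slfn5, the size in SeV+cGAMP was close to either single effect, 2.36 and 2.40, so the pair stood near the level of each ligand alone. These values include Ctrl, whose counts of Slfn1, Slfn4 and Slfn8 were few.

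Averaged over the 22 backgrounds to which a ligand could be added (Ctrl, 6 single ligands and 15 pairs), LPS had the highest average effect on Slfn1, Slfn2, Slfn4 and Slfn8; averages of different ligands were not tested against each other. Over 7 ligands and 5 members, 27 of 35 average effects were positive and past the adjusted p, against 21.1% of all genes, and 0 were negative by edgeR (29 had an unadjusted p under 0.05). LPS added 1.52 to the log2 level of Slfn4, 1.15 to Slfn1, 0.98 to Slfn8, 0.61 to Slfn2 and 0.56 to Slfn5. The difference was positive in 19, 21, 20, 21 and 15 of the 22 backgrounds. SeV added 1.05 to Slfn4, 0.82 to Slfn1, 0.72 to Slfn8, 0.55 to Slfn5 and 0.34 to Slfn2, and cGAMP added 0.89 to Slfn1 and to Slfn8, 0.70 to Slfn4, 0.65 to Slfn5 and 0.50 to Slfn2. The averages for CpGB were lower, from 0.25 for Slfn1 and Slfn5 (positive in 10 of 22 backgrounds each) to 0.48 for Slfn8 (15 of 22). The highest differences with CpGB were on Ctrl, 1.93 for Slfn1 and 1.89 for Slfn5. PAM acted on the members unequally: it added 0.62 to Slfn4 (positive in 18 of 22 backgrounds), 0.34 to Slfn2 (19 of 22) and 0.20 to Slfn8 (16 of 22), while -0.16 for Slfn1 and -0.00 for Slfn5 (11 of 22 each) did not pass. HMW added 0.25 to Slfn1 (positive in 11 of 22 backgrounds, with 2.51 on PAM+Zymosan), 0.22 to Slfn5 (13 of 22) and 0.24 to Slfn8 (16 of 22). The HMW average of Slfn1 did not pass without replicate 2 (0.23) or 3 (0.18) of every group. Zymosan added 0.17 to Slfn2 and did not pass for the other members, with averages between -0.00 and 0.15. Several of the smallest averages depended on the scaling: with library size alone the CpGB and HMW averages of Slfn1 (0.19 and 0.22) and the PAM average of Slfn8 (0.08) did not pass, and the PAM averages of Slfn1 and Slfn5 passed as negative (-0.28 and -0.13). With DESeq2 the HMW average of Slfn1 did not pass (0.24), and after thinning every library to 46564 counts neither it (0.27) nor the Zymosan average of Slfn2 (0.09) nor the PAM average of Slfn8 (0.19) passed.

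**Figure D3:**
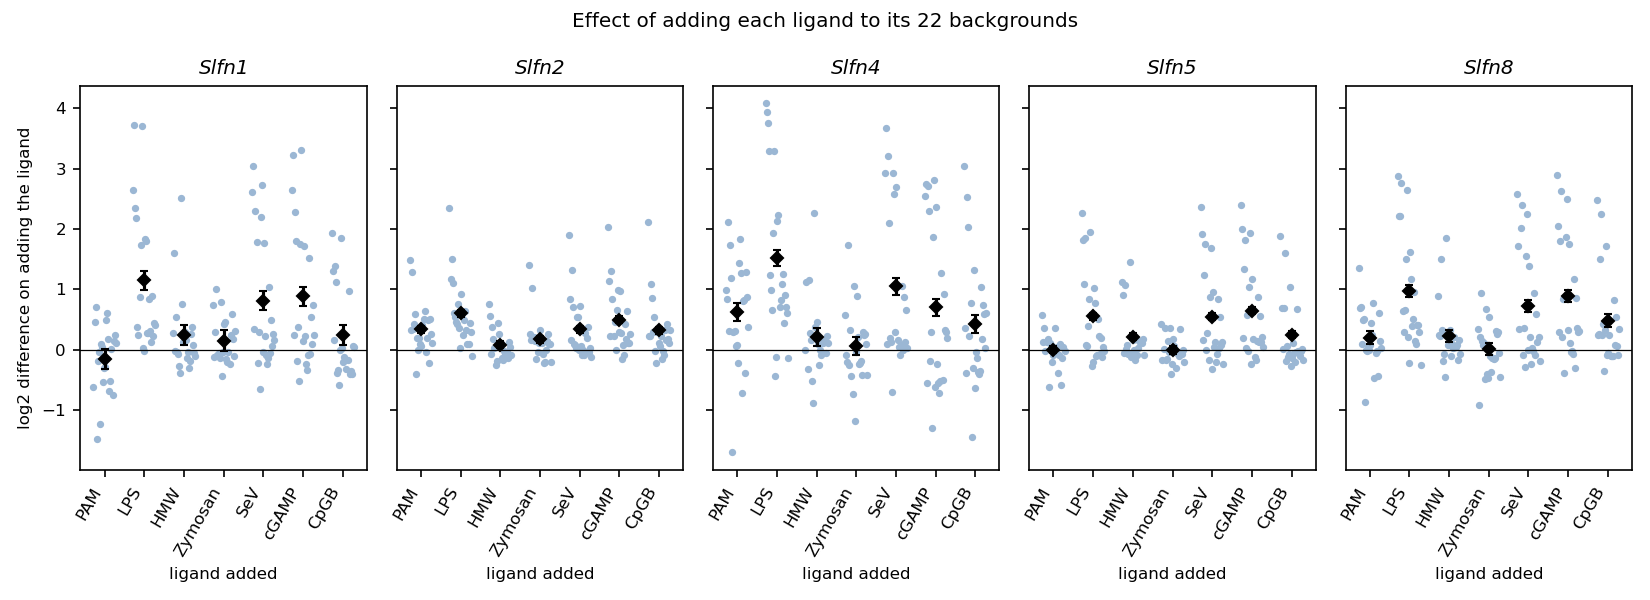
Change in log2 level on adding 1 ligand (x axis) to each of its 22 backgrounds, 1 panel per tested Schlafen gene; points are backgrounds, and diamonds are the average effect with its 95% interval. Points for LPS on Slfn4 reach 4.08, on Ctrl, and PAM on Slfn4 runs from -1.70 on CpGB to 2.12 on HMW.

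Read background by background, with both thresholds, LPS raised Slfn4 in 11 of 22 cases, against 6.09% of all gene comparisons, SeV in 8 (2.93%), cGAMP in 8 (5.65%), PAM in 7 (2.68%), CpGB in 4 (2.65%), Zymosan in 2 (2.51%) and HMW in 1 (0.443%). PAM, HMW and Zymosan had strong effects in particular places. HMW added to PAM+Zymosan raised Slfn1, Slfn4, Slfn5 and Slfn8: Slfn5 went from 316, 383 and 325 CPM to 1258, 654 and 900.1 (log2 difference 1.45, adjusted p = 1.24e-15; 1.24 to 1.82 without 1 replicate of every group). Slfn4 went from 52.6, 58.9 and 30 CPM to 403, 74 and 187 (2.27, adjusted p = 1.46e-06), with replicate 2 of the triplet close to the pair; without replicate 1 or 2 of every group the difference was 1.73 or 3.01. Slfn1 went from 0, 14.7 and 20 CPM to 124, 58.4 and 69.5 (2.51, adjusted p = 0.000226), and Slfn8 from 63.2, 58.9 and 54.9 CPM to 306, 136 and 201 (1.85, adjusted p = 3.22e-07). Replicate 1 of the triplet was the highest library for each of the 5 members and differed from the other 2 over all genes by a chi-square per degree of freedom of 3.58 and 2.45, against 1.51 between those. Without replicate 1 of every group the differences were 1.89 for Slfn1 (adjusted p = 0.0414), 1.24 for Slfn5 and 1.66 for Slfn8 (adjusted p = 0.000337), all called. The difference of Slfn2, 0.45 (adjusted p = 0.0203), stayed under the fold threshold with overlapping libraries. No library of PAM+HMW+Zymosan overlapped PAM+Zymosan for Slfn1, Slfn4, Slfn5 and Slfn8. The share of all genes called or not overlapping on this background alone was not counted, and the 0.443% above covers all 22 backgrounds of HMW.

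Slfn4 rose above both single ligands when PAM was given with SeV or cGAMP. These were the only 2 of 105 member comparisons in which a pair exceeded each of its ligands by a log2 difference of at least 1, against 0.353% of all genes; without 1 replicate of every group the count was 1 to 3. PAM+SeV libraries held 527, 700.0 and 589 CPM of Slfn4, against 178 to 191 with SeV and 33.3 to 59 with PAM, a difference of 1.73 over SeV (adjusted p = 1.04e-07). PAM+cGAMP libraries held 291, 267 and 403 CPM, against 123 to 165 with cGAMP, a difference of 1.19 (adjusted p = 0.00531). Neither pair overlapped its single ligands. The second difference fell under the fold threshold with library size alone (0.92), after thinning to equal totals (0.82) and without replicate 3 of every group (0.88). With no fold threshold, 7 of 105 comparisons passed, against 0.805% of all genes. The 5 more were Slfn4 in PAM+LPS (374, 769 and 936 CPM, 0.84 over LPS, adjusted p = 0.00536), Slfn8 in PAM+LPS (465, 524 and 539 CPM, 0.69, adjusted p = 0.0152), and Slfn2 in PAM+cGAMP (0.60), PAM+HMW (0.56) and cGAMP+CpGB (0.46). The difference of Slfn4 in PAM+LPS did not pass without replicate 2 (0.67) or 3 (0.72) of every group. PAM was given in 6 of these 7 comparisons, and the share of PAM pairs among such results of all genes was not counted. No triplet exceeded its 3 pairs for any member in the main fit (0 of 175 by edgeR and by DESeq2, also with no fold threshold in edgeR, and 5 positive at an unadjusted p under 0.05), against 0.0115% of all genes. The count reached 1 with no filter on low counts, with a replicate block and on leaving out a replicate number of every group.

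Added to CpGB, PAM had the opposite sign. Slfn4 was at 136, 219.5 and 212 CPM with CpGB and at 76.3, 51.8 and 56 with PAM+CpGB, a fall by 1.70 on the log2 scale (SE 0.41, adjusted p = 0.00419). This call was lost without replicate 2 of every group (-1.53, adjusted p = 0.0873) and without replicate 3 (-1.59, adjusted p = 0.0892). Slfn5 went from 922, 996 and 936 CPM to 735, 563 and 576, a fall by 0.62 (SE 0.15, adjusted p = 0.00372), under the fold threshold. All PAM+CpGB libraries lay below all CpGB libraries for both genes. Slfn4 was lower with PAM than without it in 4 of the 22 backgrounds, and each of the 4 held CpGB (CpGB, HMW+CpGB, Zymosan+CpGB and LPS+CpGB); only the first was called. In the other 2 backgrounds with CpGB the difference was positive and was not called, 0.87 on SeV+CpGB and 0.37 on cGAMP+CpGB. The differences for Slfn1, Slfn8 and Slfn2 on CpGB were -1.23, -0.87 and -0.40 and did not pass (adjusted p = 0.198, 0.0679 and 0.179). The contrast of both effects, PAM on another ligand minus PAM on CpGB, was tested after these values were seen and on the same libraries, so it gives the size of the difference and is not independent evidence of it. On LPS it was positive past the adjusted p for 5 of 5 members, against 2.99% of all genes. On SeV it was so for 4 of 5, against 6.31%, and on cGAMP for 4 of 5, against 5.23%, Slfn1 being the exception in both. Slfn4 gave the largest values, 2.54 on LPS (SE 0.45, adjusted p = 1.66e-05), 3.43 on SeV (SE 0.48, adjusted p = 1.67e-09) and 2.89 on cGAMP (SE 0.51, adjusted p = 3.53e-06). The result of Slfn1 on LPS (adjusted p = 0.0486) was lost with RLE factors (0.0553), DESeq2 (0.0909) and no filter on low counts (0.0542), and that of Slfn2 on LPS with no filter (0.0708). The 3 contrasts share the CpGB and PAM+CpGB libraries. Of these 13 positive results, 8 were left with library size alone, 7 after thinning to equal totals, and 4 to 12 without 1 replicate of every group.

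**Figure D4:**
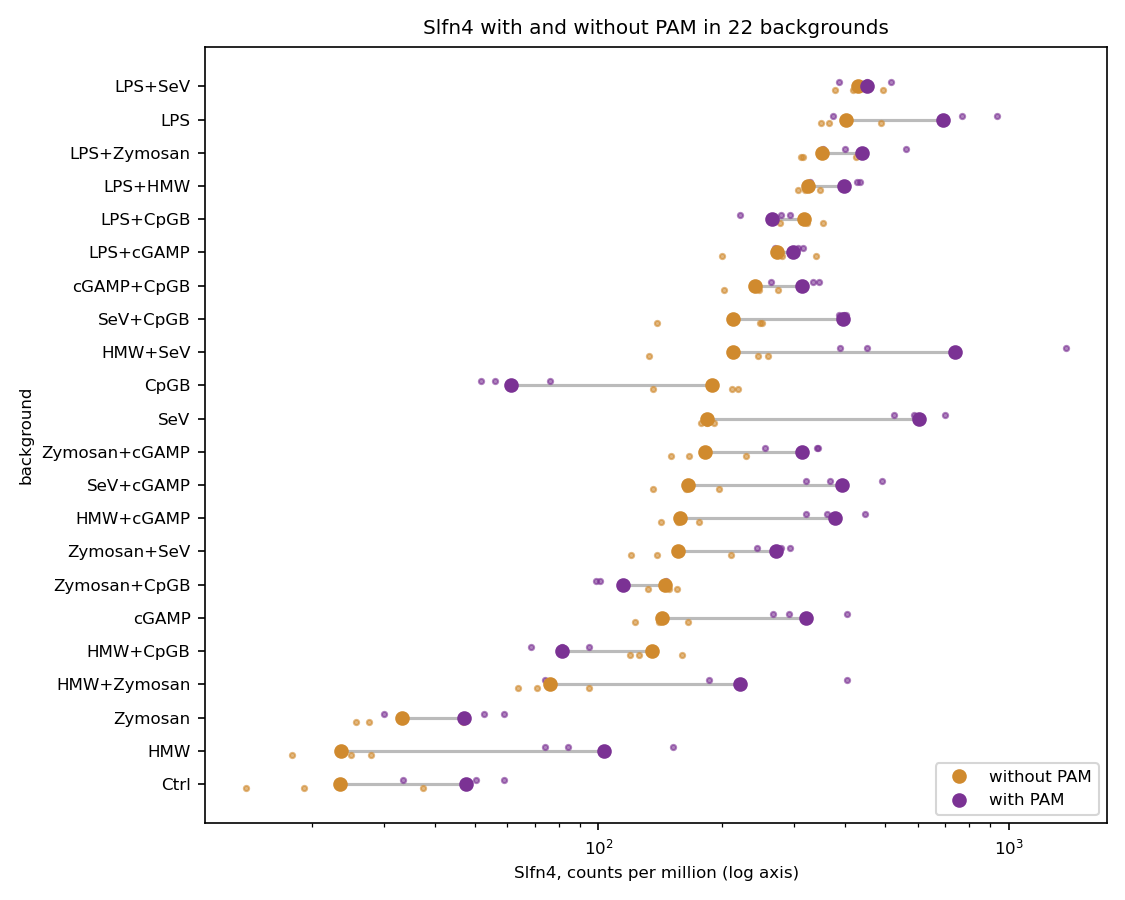
Slfn4 with and without PAM in its 22 backgrounds (y axis, ordered by the mean without PAM); x axis, CPM on a log axis; small points are libraries and large points group means. PAM+SeV libraries (527 to 700.0 CPM) lie above SeV libraries (178 to 191), and PAM+CpGB libraries (51.8 to 76.3) below CpGB libraries (136 to 219.5).

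Slfn4 also fell when cGAMP or CpGB was added to PAM+LPS, where its libraries held 374, 769 and 936 CPM. Replicate 1, the lowest of these, also differed over all genes from replicates 2 and 3, by a chi-square per degree of freedom of 2.07 and 2.11 against 1.30 between those. With cGAMP the libraries were at 316, 307 and 269 CPM (-1.30, adjusted p = 6.45e-06), and with CpGB at 222, 293 and 279 (-1.44, adjusted p = 2.17e-06). All 6 of these libraries lay below the 3 of PAM+LPS. Without replicate 3 of every group the difference with cGAMP was -0.94, under the fold threshold. HMW (-0.88, adjusted p = 0.0419) and Zymosan (-0.73, adjusted p = 0.0277) gave smaller differences with overlapping libraries, and SeV gave -0.70, which did not pass (adjusted p = 0.319). Zymosan added to PAM+SeV brought Slfn4 to 279, 293 and 243 CPM (-1.18, adjusted p = 0.000106). PAM raised Slfn4 on other backgrounds besides SeV and cGAMP, with log2 differences of 2.12 on HMW (84.2, 152 and 74 CPM, adjusted p = 0.000274), 1.83 on HMW+SeV, 1.43 on HMW+Zymosan, 1.30 on SeV+cGAMP and 1.28 on HMW+cGAMP. The value on HMW did not pass without replicate 2 of every group (1.55, adjusted p = 0.0552). That on HMW+Zymosan, where libraries overlapped, did not pass without replicate 1 (0.65, adjusted p = 0.439), and that on HMW+SeV was 1.06 without replicate 3, which holds the library at 1381 CPM (adjusted p = 0.00591).

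Slfn3 and Slfn9, the rarely counted members, are given by summed counts, with exact Poisson intervals (95%) that cover counting error only. CPM with such an interval are the summed counts over the summed scaled library sizes of those libraries. Slfn9, a long form, had 0 counts in Ctrl, for which the exact interval reaches 14.4 CPM (the limit of 3 counts over the group is 11.7 CPM), and 0 with PAM. It had 10 counts with SeV, 9 with LPS, 7 with cGAMP, 3 with CpGB and 1 each with HMW and Zymosan. Over the 147 libraries with LPS, SeV or cGAMP it reached 373 counts, 15.3 CPM (13.8 to 16.9), against 33 counts, 4.22 CPM (2.90 to 5.92), in the 42 stimulated libraries without them. The intervals do not overlap, and the libraries of a class were summed, so the spread between groups is not in them. By the mean of the libraries of a group, as for the other members, PAM+LPS was highest, at 38.2 ± 3.95 CPM (22 counts). The next means varied widely between libraries, as in SeV+cGAMP+CpGB (30.9 ± 31.5 CPM, 9 counts) and SeV+CpGB (26.6 ± 18.5 CPM, 11 counts), and PAM+HMW+SeV, with the deepest library, held 19 counts. When genes of low counts were kept in the fit, no adjusted p for Slfn9 passed (0.0995 with LPS, 0.0661 with SeV and 0.163 with cGAMP; unadjusted p = 0.00970, 0.00347 and 0.0142).

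Slfn3, an intermediate form, had 0 counts in Ctrl and with Zymosan, 6 with LPS, 3 with HMW, 3 with SeV and 1 each with PAM, cGAMP and CpGB. It had 175 counts, 7.18 CPM (6.15 to 8.32), with LPS, SeV or cGAMP and 25 counts, 3.19 CPM (2.07 to 4.71), without them. By number of ligands it was at 4.27 CPM (2.39 to 7.04) in single ligands, 4.76 (3.53 to 6.27) in pairs and 7.42 (6.22 to 8.79) in triplets. The highest group means were in HMW+Zymosan+cGAMP (17.1 ± 14.8 CPM, 7 counts), PAM+LPS (14.9 ± 6.16 CPM, 9 counts) and PAM+SeV+CpGB (14.6 ± 9.58 CPM, 9 counts), while PAM+HMW+SeV, with the deepest library, held 10 counts. Both low members share long stretches with an abundant neighbour in the cluster, Slfn3 with Slfn4 and Slfn9 with Slfn8, so single counts may belong to the other gene. Of further Schlafen-like entries in the table, Slfn10-ps had 317 counts in 147 libraries, Slfn14 had 3 and Slfnl1 had 2.

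Across the 64 group means of log2 CPM, the 5 tested members ran together to different degrees. These correlations are descriptions with no p, since groups share ligands and the depth of the libraries differs. Slfn5 and Slfn8 were the closest (Pearson's r = 0.944) and Slfn1 and Slfn2 the least close (0.787), and Spearman's rho was lowest between Slfn4 and Slfn5 (0.506). The genes most like each member were sought among all genes tested. Slfn5 was closest to Ifi47 (0.976), Ifi204 (0.976) and Ifit1 (0.975), and Slfn1 to Pyhin1 (0.961), Irf7 (0.959) and Ifi47 (0.958). Slfn8 was closest to Trim30a (0.968), Gbp3 (0.967) and Usp18 (0.965). Slfn4 was closest to Ch25h (0.946), the enzyme that makes 25-hydroxycholesterol, AW112010 (0.927) and Casp4 (0.923), a sensor of intracellular lipopolysaccharide. Slfn2 was closest to Cflar (0.948), an inhibitor of caspase-8, Helz2 (0.927) and Gbp5 (0.925). Of the pathway list, Irf7 correlated with the 5 members at 0.846 to 0.960, whereas Irf3, whose protein is activated by phosphorylation, correlated at -0.505 to -0.427 and Ifnar1 at -0.377 to -0.013.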

How the data were processed

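Per the labels' protocols, the authors isolated total RNA, reverse transcribed it with template switching, pooled barcoded cDNA, tagmented the product (Nextera XT) and sequenced libraries on an Illumina NextSeq. The authors deposited UMI counts per gene as whole numbers, not normalized, in 192 columns; BWA 0.7.15 and mm10 are named in the submitters' processing notes, and the annotation, the rule for collapsing UMIs and the treatment of multiply matching reads are not given in the sources used here. The analysis used edgeR 4.0.16 in R 4.3.3: filterByExpr by group (4720 of 23481 genes, 95.7% of UMIs), TMM factors, and a quasi-likelihood model with 1 coefficient per group (128 residual degrees of freedom, biological coefficient of variation 10.3%), checked on simulated counts. P-values are two-sided and adjusted by Benjamini-Hochberg over the genes tested within each contrast. Calls against Ctrl, between single ligands and on adding a ligand need an adjusted p under 0.05 and a log2 fold change of 1 or more in size; average effects, interactions, neighbours and the PAM differences need the adjusted p alone. Standard errors are the log2 fold change over the root of F. CPM use TMM-scaled library sizes, and correlations use log2 CPM with a prior count of 2. Replicates of a group differed by more than sampling noise (chi-square over degrees of freedom 1.11 to 4.63), and no columns were identical.

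The members, the gene lists and the rules for named genes and alternatives were chosen with earlier results of these data known. The rule names all 7 members, their values in single ligands, the 3 highest and 3 lowest combinations, the largest called interaction and the 3 most alike genes per member. The alternatives were RLE factors, library size alone, no filter, DESeq2 1.42.0, thinning, a replicate block, fits on 2 groups and leaving out replicates. Promoters and gene positions are from RefSeq GRCm38.p6 and GENCODE M21, and all 7 members matched both.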

Additional observations from a re-analysis of the deposited data

Results flagged for a closer look

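For Slfn4, PAM had opposite signs on CpGB and on SeV or cGAMP, and the contrast below was formed after this was seen and reads the same libraries, so its p-values are not independent evidence. Compared with its effect on CpGB, the effect of PAM on LPS was higher by a log2 difference of 2.54 for Slfn4, 1.70 for Slfn1, 1.56 for Slfn8, 0.75 for Slfn5 and 0.72 for Slfn2. On SeV the same difference was 3.43 for Slfn4, 1.37 for Slfn8, 0.83 for Slfn2 and 0.75 for Slfn5. On cGAMP it was 2.89 for Slfn4, 1.39 for Slfn8, 0.99 for Slfn2 and 0.80 for Slfn5. These 13 of 15 differences passed in edgeR after Benjamini-Hochberg adjustment (highest adjusted p = 0.0486, for Slfn1 on LPS), while those of Slfn1 on SeV (1.06) and cGAMP (1.21) did not. For Slfn4 the 2 effects had opposite signs, 1.73 on SeV and -1.70 on CpGB. The value of Slfn1 on LPS did not pass with RLE factors (adjusted p = 0.0553) or DESeq2 (0.0909). The 3 forms of the contrast share the CpGB and PAM+CpGB libraries. Slfn4 in PAM+HMW+SeV rests on 1 library of 1381 CPM beside 452 and 387; groups of 3 were not tested for outlying libraries.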

How the results depend on the processing

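Of the counts of calls, members higher than Ctrl stayed at 21 to 26 for single ligands, 91 to 97 for pairs and 169 to 174 for triplets over 10 settings each, and 0 were lower under any. Leaving out a replicate number in every group gave 21 to 23, 93 to 97 and 169 to 174, and 9 to 14 higher and 40 to 43 lower between single ligands, 26 to 28 positive averages and 32 to 42 negative interactions. Library size alone gave 2 negative averages (Slfn1 and Slfn5 with PAM), 8 positive PAM differences and 1 pair above both ligands. Thinning to 46564 counts gave 7 positive PAM differences and 1 such pair, and no fold threshold gave 7 pairs. Without a replicate number, the pairs above both ligands were 1 to 3, the triplets above their pairs 0 to 1 and the PAM differences 4 to 12. No filter on low counts gave 1 triplet above its pairs. The causes of these changes were not tested. Replicate numbers did not pair the libraries (mean correlation of deviations 0.0083 for the same number against -0.0041 for others), and the replicate block gave 1 triplet above its pairs and kept 85 of the single results, 1 exception being the HMW average of Slfn4 (0.22), which then passed.

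Of single results, leaving out 1 library kept 196 and ended 6, and fits on the ligand and Ctrl libraries alone kept 25 of 25 (10 could not be given). Leaving out replicate 3, 2 or 1 of every group ended 13, 11 and 3, DESeq2 ended 3, library size alone 10, thinning 10, no filter 2 and RLE 1. Against TMM, the median of all genes shifted by -0.12 with RLE, -0.19 with library size alone, -0.17 after thinning, 0.19 with no filter and 0.13 without replicate 1 (single ligands). Few counts in Ctrl limit the folds of Slfn1, Slfn4 and Slfn8, and Slfn3 and Slfn9, with few counts, were tested for single ligands alone, where none passed.

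Signs were followed for single ligands against Ctrl, averages, PAM differences and the pairs above both ligands. Among these no called value changed sign. Of the log2 values that did not pass, 8 changed sign under some setting, 29 times in all, and passed under none of those. For Slfn8 the Zymosan average (0.012) was -0.0095 with RLE, -0.036 with library size alone, -0.0087 with DESeq2 and -0.14 after thinning. With no filter, Slfn4 with HMW (-0.01 against Ctrl) was 0.15, and the PAM and Zymosan averages of Slfn5 were 0.027 and 0.014. After thinning, Slfn1 and Slfn4 with HMW were -0.084 and 3.06, and Slfn8 with Zymosan -1.14; with the replicate block Slfn4 with HMW was 0.0038. Without 1 library or replicate number the ranges against Ctrl were -1.45 to 1.38 (Slfn1, PAM), -0.30 to 2.27 (Slfn1, HMW), -0.34 to 0.68 (Slfn4, HMW) and -0.68 to 1.66 (Slfn8, Zymosan), and those of averages -0.014 to 0.046 (Slfn8, Zymosan), -0.014 to 0.12 (Slfn4, Zymosan), -0.035 to 0.016 (Slfn5, PAM) and -0.0099 to 0.011 (Slfn5, Zymosan).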
